A study of Mus musculus with 49 samples.

Results

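The Notch receptors Notch1, Notch2 and Notch3, the ligands Jag1, Jag2, Dll1 and Dll4, and the target genes Hes1, Hey1 and Nrarp were followed across every condition of a study of mouse hepatocytes in culture. The genes were picked by name as parts of the pathway, with earlier results of these data known, and all 10 were found among the 46078 gene identifiers of the deposited count matrix. CEL-Seq2, a method that tags and sequences 3′ ends of polyadenylated RNA and counts unique molecular identifiers (UMIs), was run on 49 libraries of 16 conditions. The study followed hepatocytes as they dedifferentiated in monolayer into expandable cells, the dediHeps, and then placed these in cultures that favour liver or intestinal differentiation.

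All cells came from wild-type C57BL/6J mice. Freshly isolated hepatocytes (FH, n = 3) were from livers of animals aged 10 weeks. Hepatocytes from animals of that age were plated with EGF (20 ng/mL) and collected as triplicates (n = 3) at 3 h, at 1, 2 and 4 days, and at 1 and 2 weeks. The labels do not say that these came from the preparations of the FH libraries. Hepatocytes from animals aged 10 weeks were grown for 1 week with EGF (20 ng/mL) and verteporfin at 0.3 µM, a compound that blocks the Hippo effector Yap. They were set beside DMSO controls of the same age, with the same EGF (n = 2 each). dediHeps (n = 5) were kept in the same EGF medium as monolayers. They, and so the aggregates and organoids made from dediHeps, came from hepatocytes of animals aged 10 weeks. The dediHep library names carry codes, lettered A to E here and termed cultures, and some recur in names of aggregates and spherical organoids. The labels do not say what the codes mean, or that these were made from the dediHeps that were sequenced. Aggregates (n = 3, with codes A, B and D) were formed from dediHeps in low-attachment wells. Spherical organoids from dediHeps (dediHep-SOs, n = 3, with codes A, C and B) were grown in Matrigel in an intestinal organoid medium. Budding organoids (dediHep-BOs, n = 3) came from dediHeps that carried a Cdx2 retrovirus. Spherical organoids from fetal intestinal progenitor cells (FIPC-SOs, n = 3) of E13.5 embryos and budding organoids from intestinal stem cells (ISC-BOs, n = 4) of adult crypts, from animals aged 10 weeks, served as gut-derived counterparts. Chemically induced liver progenitors (CLiPs, n = 3) are hepatocytes from animals of that age converted with small molecules. The labels do not say which libraries of the time course, verteporfin and DMSO, dediHep-BOs, CLiPs or gut organoids came from separate animals. The paper's reporting summary says that experiments were repeated independently 3 times or more, or 2 times for the verteporfin transcriptomes, but does not assign libraries to repeats. The p-values measure the spread between these libraries, which may be technical.

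Notch signalling passes between touching cells. A Jagged or Delta-like ligand on 1 cell binds a Notch receptor on its neighbour, the receptor is cleaved by an ADAM protease and then by γ-secretase, and the freed intracellular domain enters the nucleus and acts with Rbpj and Mastermind-like proteins to switch on targets such as the Hes and Hey repressors and Nrarp, a feedback inhibitor. In the liver the pathway is known for bile duct formation, where Jag1 and Notch2 are needed. In the intestine Dll1 and Dll4 on secretory cells act on Notch1 and Notch2 of neighbouring stem and progenitor cells, where Hes1 represses Atoh1, the master gene of secretory cells.

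On the GRCm38 assembly Notch1 lies on chromosome 2 (26457903 to 26516663, minus strand), Notch2 on chromosome 3 (98013527 to 98150361, plus strand) and Notch3 on chromosome 17 (32120820 to 32166852, minus strand). Of the ligand genes, Jag1 lies on chromosome 2 (137081456 to 137116644, minus strand), Jag2 on chromosome 12 (112907819 to 112929776, minus strand), Dll1 on chromosome 17 (15367354 to 15376872, minus strand) and Dll4 on chromosome 2 (119325784 to 119335962, plus strand). Of the targets, Hes1 lies on chromosome 16 (30064384 to 30067796, plus strand), Hey1 on chromosome 3 (8663359 to 8667256, minus strand) and Nrarp on chromosome 2 (25180758 to 25183339, plus strand). The counts come from the exons at the 3′ end of each gene, so levels of different genes are not compared below.

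RefSeq start sites on GRCm38.p6 gave promoter sequence for 8 of the 10 genes, at 9 start sites. Only 4 of the 9 windows lay outside annotated genes of the same strand, and these are the windows shown. The others overlap such genes, among them a further Dll1 window that is not shown. The 250 bases before the start are shown for the genes called between dediHep-BOs and dediHep-SOs (Notch3, Dll1 and Dll4) and for the target Nrarp, 5′ to 3′ on the gene's own strand, with the E-box CACGTG, a sequence that Hes and Hey proteins and many other factors can bind, in capitals.
Notch3, chr17:32166891-32167140, minus strand: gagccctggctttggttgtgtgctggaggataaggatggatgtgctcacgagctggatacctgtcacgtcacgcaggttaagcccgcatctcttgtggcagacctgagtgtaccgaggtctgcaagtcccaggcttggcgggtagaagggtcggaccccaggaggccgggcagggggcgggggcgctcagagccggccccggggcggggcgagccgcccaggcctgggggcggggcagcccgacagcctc
Dll1, chr17:15376933-15377182, minus strand: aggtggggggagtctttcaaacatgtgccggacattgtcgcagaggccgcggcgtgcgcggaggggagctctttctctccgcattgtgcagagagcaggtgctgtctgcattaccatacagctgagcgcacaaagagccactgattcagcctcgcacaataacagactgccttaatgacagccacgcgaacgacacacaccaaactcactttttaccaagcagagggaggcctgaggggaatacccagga
Dll4, chr2:119325534-119325783, plus strand: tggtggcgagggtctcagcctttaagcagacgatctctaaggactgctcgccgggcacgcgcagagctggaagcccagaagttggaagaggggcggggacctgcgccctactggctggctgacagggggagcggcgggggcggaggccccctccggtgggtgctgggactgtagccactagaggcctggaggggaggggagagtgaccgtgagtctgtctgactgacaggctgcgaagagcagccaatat
Nrarp, chr2:25180508-25180757, plus strand: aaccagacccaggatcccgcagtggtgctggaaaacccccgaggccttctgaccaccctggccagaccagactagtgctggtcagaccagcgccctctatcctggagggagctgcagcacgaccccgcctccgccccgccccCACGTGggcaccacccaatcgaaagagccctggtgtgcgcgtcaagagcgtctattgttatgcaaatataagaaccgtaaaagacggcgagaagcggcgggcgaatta

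The letters CACGTG occurred in 1 of the 9 promoters, that of Nrarp, beginning 108 bases before the start, and in 6.02% of 32851 promoters of the same length. The letters TGGGAA, the core that Rbpj binds, were searched on both strands and occurred in 0 of the 9, against 21.6% of all promoters. These are matches of letters in short windows and no measurement of binding. Hes1 and Hey1 were not in the promoter table.

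The 10 genes were covered unevenly. Hes1 had the most counts, 11030 over all libraries, and was seen in all 49, as were Notch1 (2993 counts) and Notch2 (2983 counts). Jag1 had 2456 counts in 46 libraries, Nrarp 1535 in 41, Jag2 1287 in 37, Notch3 384 in 35, Dll4 256 in 26, Dll1 196 in 29 and Hey1 127 in 16. Library totals ran from 861047 to 3872936 counts (median 1976760), so that 3 counts, the most that a count of 0 allows, correspond to between 0.671 and 3.91 CPM, counts scaled to a common library size of 1e+06, in a library, for counting error only. Below, levels are CPM scaled with TMM factors over all 49 libraries and errors after a mean are SDs between libraries. A fold against 0 counts is given over a floor of 3 counts in that group, without the counting error of the other group. A gene is termed called, and is said to rise or fall, where edgeR's quasi-likelihood test gave a log2 fold change beyond 2 in either direction together with a Benjamini-Hochberg FDR under 0.1 over all genes tested. In bulk RNA, fewer cells of a type and less RNA per cell cannot be told apart.

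**Figure D1:**
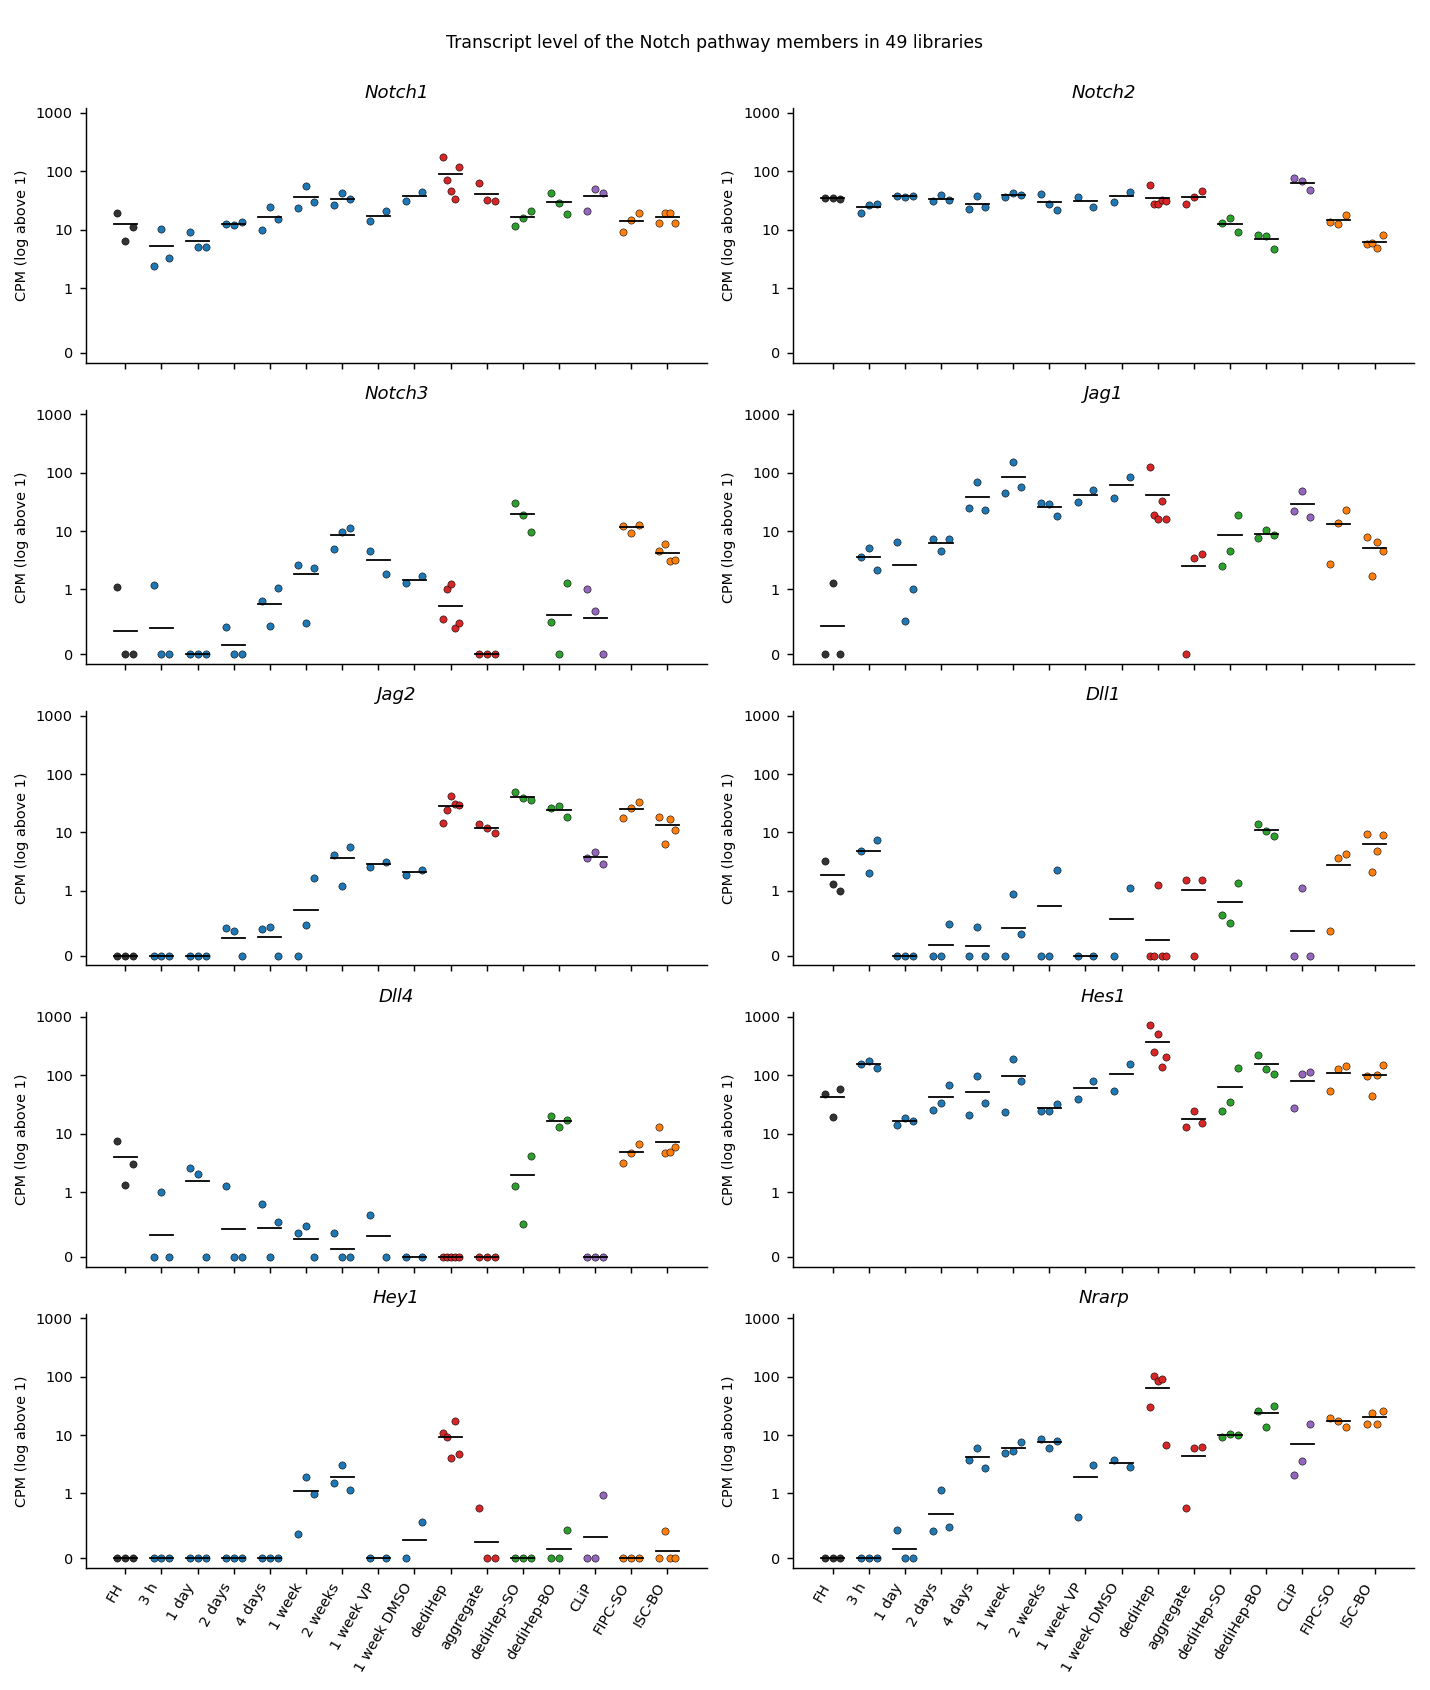
Level of each of the 10 genes in all 49 libraries, with condition on the horizontal axis and CPM on a vertical axis that is linear below 1 and logarithmic above. Points are libraries and bars are condition means. Hey1 stands above 4 CPM in dediHeps only, Notch2 is lowest in the organoids, and Dll4 has no count in dediHeps, aggregates and CLiPs.

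The receptors had different patterns over the 16 conditions. Notch1 was highest in dediHeps, at 89.8 ± 59.8 CPM, and lowest at 3 h, where the libraries gave 2.39, 10.2 and 3.21 CPM. The 5 dediHep cultures ran from 33.4 to 179 CPM, and along the order of the 16 means no pair of neighbouring conditions was separated beyond its spread. Notch2 was highest in CLiPs (75.8, 67.1 and 47.8 CPM), above every library of the next condition, hepatocytes at 1 week. Its level ran from 19.1 to 45.6 CPM in FH, the untreated time course and the aggregates, and in all 13 organoid libraries it was lower, from 4.74 to 17.8 CPM. Notch3 was highest in dediHep-SOs (30.6, 18.6 and 9.50 CPM) and FIPC-SOs (12.4, 9.40 and 12.9 CPM), followed by hepatocytes at 2 weeks (4.88, 9.71 and 11.4 CPM). It had no count in any library of hepatocytes at 1 day or of aggregates.

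Among the ligands, Jag1 was highest in monolayer hepatocytes at 1 week (44.4, 153 and 57.1 CPM), with no neighbouring pair of conditions separated. Jag2 was highest in dediHep-SOs (48.5, 38.1 and 35.7 CPM) and dediHeps (14.2, 23.9, 42.0, 30.9 and 28.9 CPM), which overlapped, and had no count in FH and in hepatocytes at 3 h and 1 day. All 3 aggregate libraries (13.9, 11.7 and 9.74 CPM) were above all 3 CLiP libraries (3.59, 4.70 and 2.93 CPM), the next condition in its order. Dll1 and Dll4 were both highest in dediHep-BOs. Dll1 gave 14.0, 10.4 and 8.62 CPM there, overlapping the ISC-BOs (9.56, 2.11, 4.79 and 9.12 CPM). Dll4 gave 20.0, 12.97 and 17.2 CPM, the lowest of them a hair above the highest ISC-BO library, 12.93 CPM.

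All of the targets were highest in dediHeps. Hes1, a repressor that many signals besides Notch induce, reached 719, 255, 515, 141 and 208 CPM in cultures A to E, and its lowest conditions were hepatocytes at 1 day (14.2, 18.3 and 16.7 CPM) and aggregates (13.1, 24.8 and 15.4 CPM). Hey1 gave 10.9, 9.15, 4.01, 17.1 and 4.82 CPM in dediHeps and at most 3.03 CPM in any other library, with no count in FH, at 3 h, 1 day, 2 days and 4 days, or in dediHep-SOs and FIPC-SOs. Nrarp gave 30.1, 103, 84.5, 91.6 and 6.75 CPM in dediHeps, with culture E the lowest, followed by dediHep-BOs (25.5, 13.8 and 31.9 CPM). FIPC-SOs (19.7, 17.7 and 13.9 CPM) were above dediHep-SOs (9.14, 10.5 and 9.96 CPM), and these above hepatocytes at 2 weeks (8.64, 6.07 and 8.01 CPM), without overlap in either case.

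Over the 16 condition means, on the log2(CPM + 1) scale, the members most alike were Jag2 and Nrarp (Pearson r = 0.85, Spearman rho = 0.91), and the most opposed were Notch2 and Dll4 (r = -0.83, rho = -0.71). Dll1 and Dll4 had r = 0.76 but rho = 0.44, and Notch1 and Hey1 had r = 0.73 with rho = 0.83. Among 12757 genes with at least 10 CPM in some condition, the pattern most like each member's was that of Tspyl1 for Notch1 (r = 0.89), Pcbp4 for Notch2 (r = 0.95), Sh3bgrl2 for Notch3 (r = 0.85), Pcgf3 and Eml2 for Jag1 (both r = 0.95), Prag1, Igsf9 and Cx3cl1 for Jag2 (r = 0.98, 0.97 and 0.97) and Aqp4 for Dll1 (r = 0.94). For Dll4 it was Vipr1 (r = 0.95), for Hes1 Glyr1 (r = 0.89), for Hey1 Crisp1 (r = 0.94, among 12758 genes) and for Nrarp C2cd3 (r = 0.94). The 16 points share the libraries and their scaling, and the values are descriptions over condition means.

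The cell types named by the labels were checked against marker lists. All 10 hepatocyte markers were seen in FH, where they summed to 21186 to 26152 CPM, against 1189 to 5025 CPM in dediHeps. They summed to 112 to 141 CPM in dediHep-SOs, where Alb had no count, and 327 to 496 CPM in FIPC-SOs. In dediHep-BOs (1314 to 1985 CPM) and ISC-BOs (1554 to 2046 CPM) the sums lay within the dediHep range, so this list did not separate them from dediHeps. Intestinal markers summed to 1095 to 1169 CPM in dediHep-SOs, 2594 to 3124 in dediHep-BOs, 1259 to 1542 in FIPC-SOs and 3418 to 3956 in ISC-BOs. In FH they summed to 123 to 205 CPM and in dediHeps to 54.2 to 822 CPM, which overlapped. Cdx2, the gene added to the dediHep-BOs, ran from 177 to 356 CPM in them, from 70.3 to 103 CPM in dediHep-SOs and from 2.19 to 122 CPM in dediHeps. Markers of bile duct cells, some of which are also genes of other epithelia, summed to 22.2 to 128 CPM in FH with 4 of 10 at 0, Krt19 and Epcam among them, 643 to 678 at 3 h, 429 to 562 at 1 day, 306 to 510 at 2 days, 643 to 762 at 4 days, 850 to 1447 at 1 week and 1184 to 1483 at 2 weeks. They summed to 1126 to 1701 CPM in dediHeps, 349 to 624 in aggregates, 3602 to 4608 in dediHep-SOs, 1413 to 1737 in dediHep-BOs and 1670 to 2961 in CLiPs. The gut-derived FIPC-SOs gave 1497 to 2046 CPM and the ISC-BOs 1221 to 1673 CPM. The part of bile duct cells in the results below was not tested. All 10 endothelial markers (202 to 353 CPM) and all 10 macrophage markers (127 to 395 CPM) were also present in FH. At 3 h macrophage markers summed to 4.07 to 10.7 CPM with 4 of 10 at 0, and their part in the differences between 3 h and FH was not tested. From 1 day to 2 weeks macrophage markers summed to 25.7 CPM or more in libraries 1 and 2 and to 14.9 CPM or less in library 3.

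The time course asked how the hepatocytes changed as they lost their identity on plastic. The ligand Jag1 and the target Nrarp rose, Jag1 from 2 days on and Nrarp from 4 days on, and none of the 5 members with enough counts fell. Jag1 gave 0, 1.30 and 0 CPM in FH (1 count in all), 7.22, 4.59 and 7.23 CPM at 2 days, 24.9, 68.9 and 23.0 CPM at 4 days, 44.4, 153 and 57.1 CPM at 1 week, and 30.8, 29.1 and 18.3 CPM at 2 weeks. Every library from 2 days on was above every FH library, and library 2 was the highest at 4 days and at 1 week. Against that single FH count, the ratio of counts per library size was 16.8 at 2 days (95% counting interval 2.86 to 678), 107 at 4 days (19.0 to 4224), 211 at 1 week (37.7 to 8347) and 75.7 at 2 weeks (13.4 to 3011). The edgeR FDRs were 0.0229, 4.25e-05, 3.05e-06 and 0.000148.

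Nrarp had no count in the FH and 3 h libraries and a higher mean at each later time. Its levels were 3.68, 6.10 and 2.68 CPM at 4 days, 4.85, 5.26 and 7.59 CPM at 1 week and 8.64, 6.07 and 8.01 CPM at 2 weeks. Set against the floor of 3 counts over the FH group, these were 3.80-fold, 5.40-fold and 6.92-fold higher (edgeR FDR 0.0024, 0.000765 and 0.000345). Macrophage markers were lowest in library 3 of each time, where Nrarp was 2.68, 7.59 and 8.01 CPM and Jag1 was 23.0, 57.1 and 18.3 CPM. With only those culture libraries kept, a choice made after the values were seen, each time from 1 day on is a single library that is assumed to vary like the FH and 3 h libraries. In that fit Jag1 was still called at 4 days and Nrarp was not (log2 fold change 4.91, edgeR FDR 0.171).

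Hes1 and Notch1 differed from FH at some times without passing both thresholds. Hes1 gave 47.9, 19.6 and 58.8 CPM in FH, 156, 175 and 135 CPM at 3 h, and 14.2, 18.3 and 16.7 CPM at 1 day. All 3 h libraries were above all FH libraries, and all 1 day libraries below them, with log2 differences of 1.88 ± 0.61 (SE, edgeR FDR 0.0502) and -1.54 ± 0.63 (FDR 0.067), short of the fold threshold. Leaving out FH library 3 took the 3 h difference to 2.18 (FDR 0.0809), past both thresholds, and it missed the FDR threshold without FH library 2 (1.55, FDR 0.195) or 3 h library 2 (1.79, FDR 0.118). The 1 day difference missed it in 5 of 21 fits with a library left out, with FDR up to 0.202. From 2 days on Hes1 varied widely among libraries, between 23.5 and 192 CPM at 1 week, with library 2 again the highest. Notch1 was 19.6, 6.52 and 10.97 CPM in FH, 23.2, 55.0 and 30.0 CPM at 1 week and 26.7, 41.9 and 33.2 CPM at 2 weeks. These groups did not overlap, and the log2 differences were 1.38 ± 0.50 (FDR 0.0294) and 1.30 ± 0.50 (FDR 0.0383). The FDR passed 0.1 at 1 week without FH library 2 (1.11, FDR 0.123) or 1 week library 2 (0.91, FDR 0.156), at 2 weeks without FH library 2 (1.02, FDR 0.143), and at both times with single libraries low in macrophage markers (1.11 and 1.35, FDR 0.302 and 0.216). Notch2 stayed between 19.1 and 43.1 CPM at every time.

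**Figure D2:**
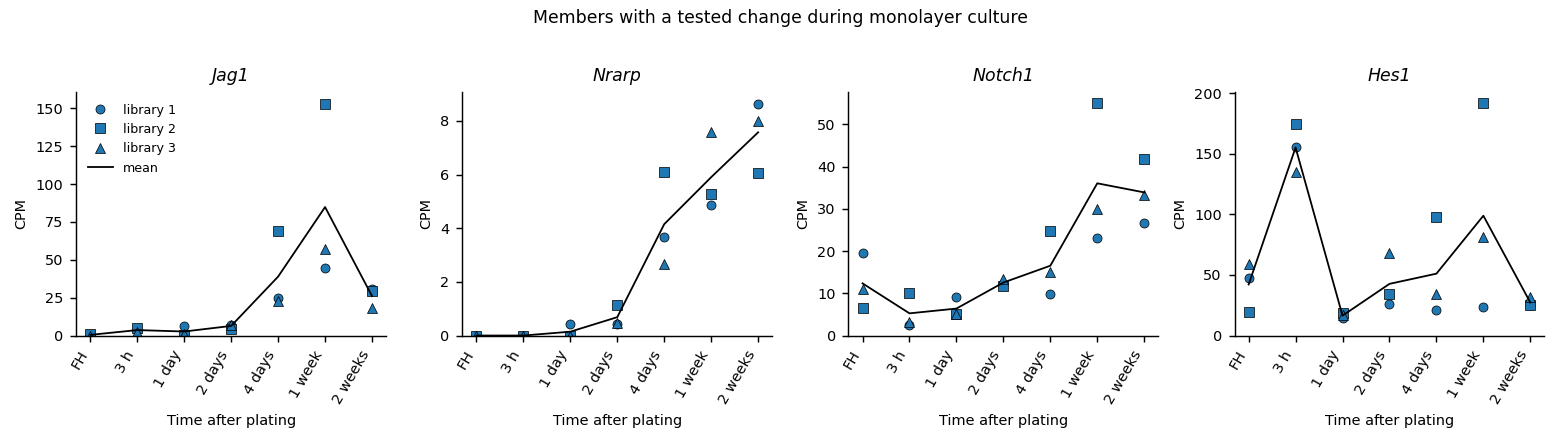
CPM of Jag1, Nrarp, Notch1 and Hes1 against time after plating, with FH at the left and unequal time steps drawn evenly. Symbols are libraries 1 to 3 and the line joins the means. Jag1 peaks at 1 week, Nrarp is highest at 2 weeks, and Hes1 is highest at 3 h and lowest at 1 day.

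Of the 10 genes 5 had enough counts to be tested in the time course, and 12443 genes were tested in all. Called higher were 0 of the 5 at 3 h, 0 at 1 day, 1 at 2 days, and 2 at each of 4 days, 1 week and 2 weeks, where 3.06%, 6.57%, 9.21%, 11.4%, 13.2% and 14.1% of all genes were called higher. Called lower were 0 of the 5 at every time, against 3.85%, 10.9%, 12.1%, 12.4%, 12.8% and 15.3% of all genes. Jag1 and Nrarp, with 1 and 0 counts in FH, passed the low-count filter only through culture libraries and could not be called lower. At an unadjusted edgeR p under 0.05 there were 2 members at 3 h (Jag1 and Hes1) and 2 at 1 day (Notch1 and Hes1), and DESeq2 called 0 at 3 h and 1, Dll1, at 1 day. Notch3, Jag2, Dll1, Dll4 and Hey1 were too low. At 2 weeks Notch3 had 39 counts against 1 in FH (ratio 20.2, counting interval 3.42 to 819). Jag2 had 18 against 0 (3.11-fold over the floor) and Hey1 10 against 0 (1.73-fold over the floor). Notch3 did not pass the low-count filter in this fit. It was tested and called higher at 2 weeks without the filter (log2 fold change 4.202, edgeR FDR 0.00334), by DESeq2 (4.34, FDR 0.0181) and with any library left out other than 2-week libraries 2 and 3 (3.57 to 7.00).

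Dll4 and Dll1 had counts in FH that were not kept. Dll4 gave 7.61, 1.30 and 2.99 CPM in FH and had 1 count in all at 2 weeks, against 11 in FH. The endothelial marker sum was 202 to 353 CPM in FH and 12.02 to 17.2 CPM at 2 weeks, and its part in the Dll4 level was not tested. Dll1 gave 3.26, 1.30 and 0.997 CPM in FH, 4.79, 2.03 and 7.49 CPM at 3 h and no count at 1 day. Where the fit kept them, Dll4 was called lower than in FH from 1 week on by DESeq2 and from 2 days on without the filter, and Dll1 was called lower at 1 day by both.

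The comparison of dediHeps with FH asked what separated the expanded cells from their source. A receptor, both Jagged ligands and all of the targets rose, and no tested member fell. Notch1 was 179, 70.7, 46.3, 33.4 and 119.6 CPM in cultures A to E against 6.52 to 19.6 CPM in FH, a log2 fold change of 2.65 ± 0.68 (edgeR FDR 0.00992) without overlap. Notch2, at 27.5 to 58.0 CPM against 32.9 to 35.2, differed by -0.16 ± 0.39 (FDR 0.784). Jag1 was 125, 18.8, 16.4, 32.2 and 15.9 CPM in dediHeps, a count ratio of 100.2 over the single count of FH (17.9 to 3967, FDR 0.00364). Jag2 had 345 counts against 0 in FH, 26.7-fold over the floor (FDR 0.000215).

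Hes1 differed by 2.93 ± 0.65 on the log2 scale (edgeR FDR 0.00445), and every dediHep culture was above every FH library. Hey1 (103 counts against 0) was 7.98-fold over the floor, with FDR 0.00488, and Nrarp (770 counts against 0) 59.7-fold over it, with FDR 0.00212. Culture E had the least Nrarp, 6.75 CPM, and culture A the most Notch1, Jag1 and Hes1. Of 7 members tested, 6 were called higher and 0 lower, where 13.1% of all 11276 genes tested were called higher and 12.6% lower. The median log2 fold change was 6.41 over the 7 and 0.08 over all genes tested, although 4 of the 7 have 0 or 1 count in FH, so that this median depends on the fit's prior count. These 4, Jag1, Jag2, Hey1 and Nrarp, passed the low-count filter only through dediHeps and could be called only as higher. The 6 called are therefore no measure against the share of all genes. Dll4 had 11 counts in FH, 15.8-fold over the floor, and 0 in dediHeps. It was too low for the test, but was called lower where it was tested, by edgeR without the filter (FDR 0.000975) and by DESeq2 (FDR 0.00228). Notch3, with 9 counts against 1, and Dll1, with 4 against 5, were too low as well. In dediHeps macrophage markers summed to 0.965 to 10.2 CPM, with 6 of 10 at 0, and stellate and mesenchymal markers to 0 to 1.64 CPM.

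**Figure D3:**
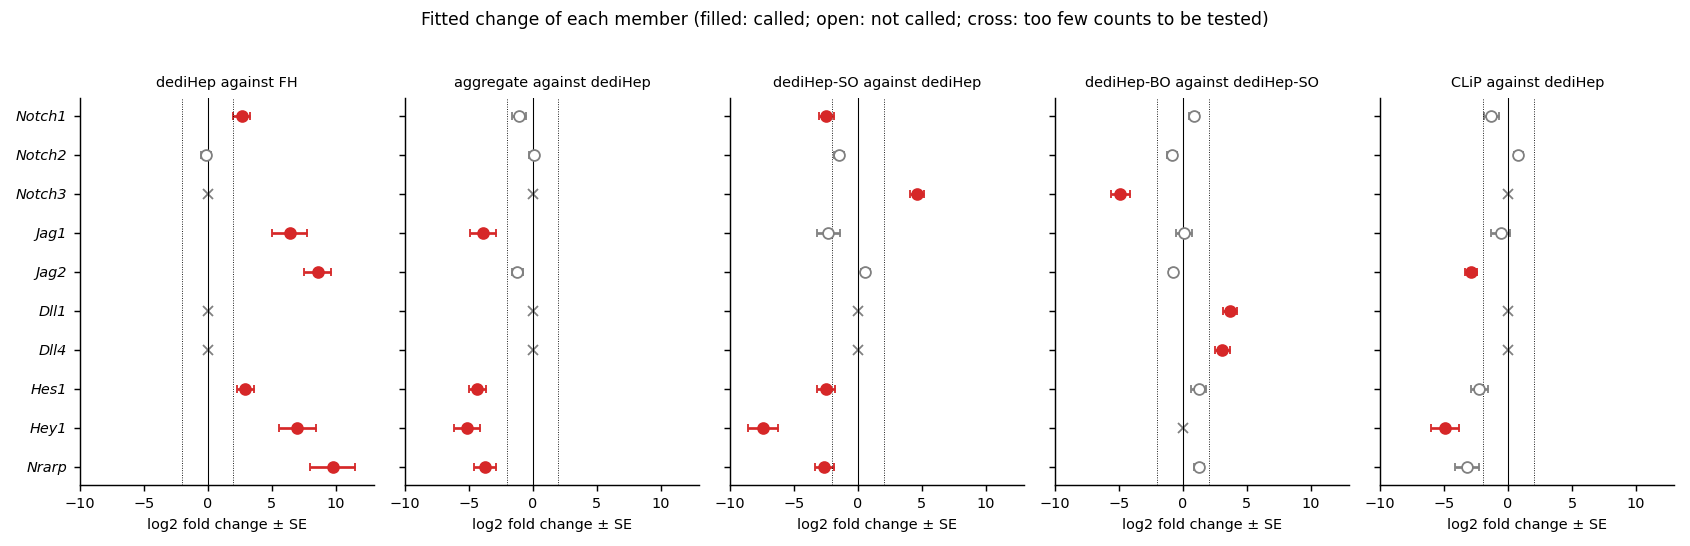
Log2 fold change with its SE (horizontal axis) of each member (vertical axis) in 5 comparisons, with dotted lines at the fold threshold of 2. Filled red points were called and open points were not, and crosses at 0 mark members with too few counts to be tested and carry no value. The 6 filled points of dediHeps against FH are all on the right, and the 4 of aggregates against dediHeps all on the left.

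Aggregation asked whether dediHeps return to a hepatocyte state. The paper names another medium for aggregates than for monolayers, so medium and form cannot be told apart in this comparison. A ligand and all of the targets fell, and both receptors with enough counts did not pass the test. In the matched cultures A, B and D, Hes1 went from 719, 255 and 141 CPM in dediHeps to 13.1, 24.8 and 15.4 CPM in aggregates, and Nrarp from 30.1, 103 and 91.6 CPM to 0.773, 6.08 and 6.15 CPM. Jag1 went from 125, 18.8 and 32.2 CPM to 0, 3.48 and 4.10 CPM, and Hey1 from 10.9, 9.15 and 17.1 CPM to 0.773, 0 and 0 CPM. All of these genes were lower in the aggregate of each culture than in its dediHeps.

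Over all 5 dediHep libraries the log2 fold changes were -4.34 ± 0.64 for Hes1 (edgeR FDR 0.00248), -3.75 ± 0.89 for Nrarp (FDR 0.0215) and -3.90 ± 1.01 for Jag1 (FDR 0.0296). Hey1 fell from 103 counts to 1, a ratio of 49.4 (counting interval 8.67 to 1969, FDR 0.00933). The aggregate of culture A, with no Jag1 count, decided the call of Jag1, which was -3.47 with FDR 0.103 without it. Jag2 was 14.2, 23.9 and 30.9 CPM in the dediHeps of A, B and D and 13.9, 11.7 and 9.74 CPM in the aggregates, a log2 difference of -1.21 (FDR 0.0714), and with culture as a block in the fit it was -0.89 (FDR 0.197). Notch1 differed by -1.07 (FDR 0.208) and Notch2 by 0.07 (FDR 0.901). Too low for the test were Notch3 (0 counts against 9 in dediHeps), Dll1 (5 against 4) and Dll4 (0 in both). Of 7 members tested, 4 were called lower and 0 higher, where 5.11% of 11265 genes were called lower and 4.39% higher. Of those called, Jag1, Hey1 and Nrarp passed the low-count filter only through dediHeps. The median was -3.75 over the 7 and -0.07 over all genes. Hepatocyte markers summed to 9267 to 13225 CPM in aggregates.

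Spherical organoids asked for the intestinal potential of dediHeps. Medium, Matrigel and form all differ from the monolayers and cannot be told apart. In dediHep-SOs the receptor Notch3 rose, while Notch1 and all of the targets fell, and the call of Jag1 depended on the method. Notch3 was 0.547, 1.02 and 1.23 CPM in the dediHeps of cultures A, B and C. It was 30.6, 9.50 and 18.6 CPM in the dediHep-SOs with the same codes, higher for each code. Over all libraries it differed by 4.63 ± 0.55 on the log2 scale (edgeR FDR 0.000397). Stellate and mesenchymal markers, a list of cells known to express Notch3, summed to 0 to 1.58 CPM in dediHep-SOs with 6 of 10 at 0. The part of such cells in the Notch3 level was not tested. Hey1 had 0 counts in dediHep-SOs against 103 in dediHeps, which were 21.9-fold over the floor (FDR 0.00364).

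Notch1 was 179, 70.7 and 46.3 CPM in the dediHeps of A, B and C and 11.3, 21.3 and 16.1 CPM in the dediHep-SOs, with a log2 fold change of -2.47 ± 0.61 (edgeR FDR 0.0237). Hes1 went from 719, 255 and 515 CPM to 24.9, 133 and 35.1 CPM (-2.52 ± 0.72, FDR 0.0471), and Nrarp from 30.1, 103 and 84.5 CPM to 9.14, 9.96 and 10.5 CPM (-2.64 ± 0.74, FDR 0.0445). In each culture the organoid was the lower, although dediHep culture E, which has no organoid, lay below the dediHep-SOs in Nrarp. The calls of Notch1, Hes1 and Nrarp were lost without dediHep-SO library 1 (-2.26, -2.12 and -2.59, FDR 0.125, 0.184 and 0.174) and without library 2 (-2.41, -2.17 and -2.66, FDR 0.104, 0.199 and 0.163), with folds still past the fold threshold.

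Jag1 was 2.52, 4.52 and 18.6 CPM in the dediHep-SOs (log2 difference -2.31, edgeR FDR 0.146) and was called lower by DESeq2 (-2.31, FDR 0.0432), without the filter (-2.25, edgeR FDR 0.0604) and with all 49 libraries in 1 fit (-2.28, FDR 0.0245). Jag2 differed by 0.57 (FDR 0.348), and Notch2 by -1.49 (FDR 0.0408), short of the fold threshold, with FDR 0.154 with culture as a block. Dll4, absent from the counts of dediHeps, had 14 counts, 7.32-fold over the floor, and was not tested here. It was called higher by DESeq2 (4.61, FDR 0.0891), without the filter (5.27, edgeR FDR 0.0168) and with all 49 libraries in 1 fit (5.08, FDR 0.0027). Dll1, with 6 counts against 4, was too low. Of 8 members tested 1 was called higher and 4 lower, against 4.12% and 4.65% of 11470 genes. Of those called, Hey1 passed the low-count filter only through dediHeps and Notch3 only through dediHep-SOs. The median was -2.39 over the 8 and -0.05 over all genes.

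**Figure D4:**
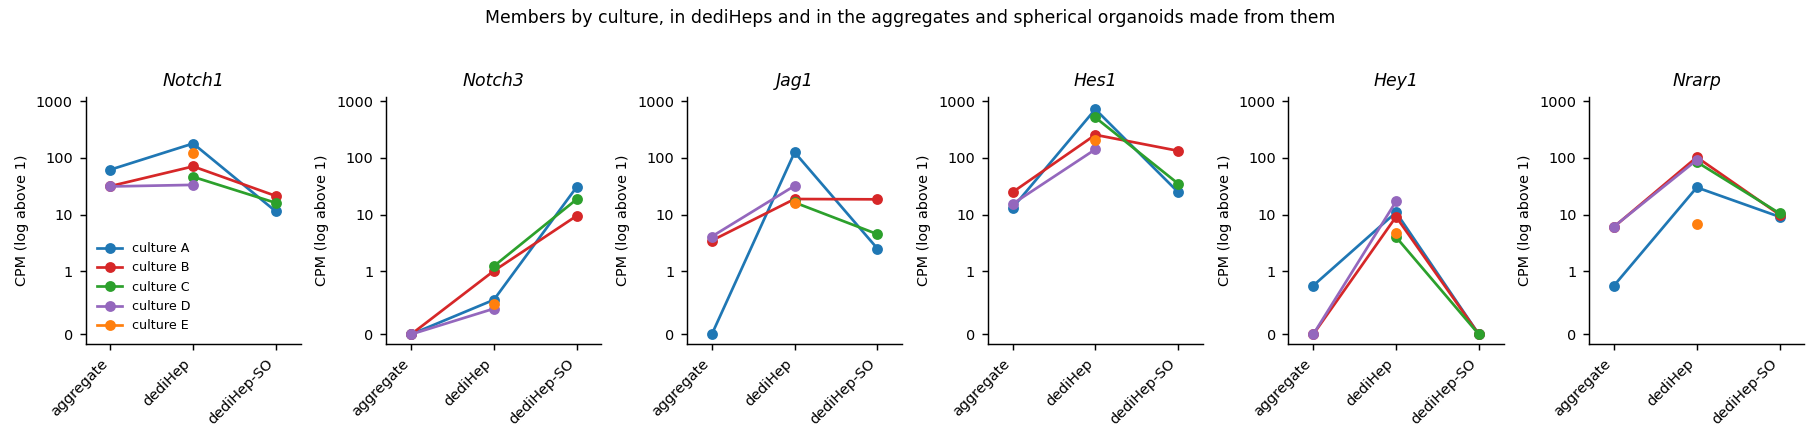
CPM of Notch1, Notch3, Jag1, Hes1, Hey1 and Nrarp in aggregates, dediHeps and dediHep-SOs, on an axis that is linear below 1 and logarithmic above. Each colour is a dediHep culture, as read from the codes in the library names, and lines join libraries that share a code. Hes1, Hey1 and Nrarp are lower in both kinds of 3D culture than in the dediHeps with the same code, and Notch3 is higher in the dediHep-SOs.

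The dediHep-BOs carry added Cdx2 and form crypt-like buds. The paper formed spherical organoids with Wnt3a and a Wnt agonist in the medium, and removed both to obtain budding organoids efficiently. Its crypt-derived organoids were grown without them. In the comparison of dediHep-BOs with dediHep-SOs, added Cdx2, medium and form cannot be told apart. The ligands Dll1 and Dll4 rose and Notch3 fell. Dll1 was 14.0, 10.4 and 8.62 CPM in dediHep-BOs and 0.630, 0.502 and 1.36 CPM in dediHep-SOs (log2 fold change 3.65 ± 0.53, edgeR FDR 0.000915). Dll4 was 20.0, 12.97 and 17.2 CPM against 1.26, 0.502 and 4.07 CPM (3.07 ± 0.58, FDR 0.00401). Notch3 was 0.501, 0 and 1.29 CPM against 30.6, 18.6 and 9.50 CPM (-4.92 ± 0.75, FDR 0.00123). The groups did not overlap for any of the 3 genes.

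Nrarp was higher by 1.26 ± 0.38 (edgeR FDR 0.0327) and did not overlap, but was short of the fold threshold. Jag2 differed by -0.75 (FDR 0.0893), Notch1 by 0.88 (FDR 0.118), Notch2 by -0.86 (FDR 0.12), Hes1 by 1.24 (FDR 0.132) and Jag1 by 0.07 (FDR 0.944). Hey1 had 1 count in dediHep-BOs and 0 in dediHep-SOs. Without dediHep-SO library 3, the highest of that group in Hes1 at 133 CPM, Hes1 differed by 2.42 with FDR 0.000177. Of 9 members tested 2 were called higher and 1 lower, where 5.6% and 5.68% of 11301 genes were, and the median was 0.88 over the 9 and 0.00 over all genes. Dll1 and Dll4 passed the low-count filter only through dediHep-BOs, and Notch3 only through dediHep-SOs.

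Markers of other cells moved with these genes. Atoh1, the secretory master gene, was 0.630 to 1.00 CPM in dediHep-SOs and 28.5 to 56.5 CPM in dediHep-BOs, and secretory gut markers as a list summed to 1647 to 2339 CPM (9 of 10 seen) and 3180 to 4597 CPM (10 of 10 seen). Their part in the Dll1 and Dll4 levels was not tested. Stellate and mesenchymal markers summed to 292, 291 and 4.31 CPM in dediHep-BO libraries 1 to 3. In the same order Dll1 was 14.0, 10.4 and 8.62 CPM and Dll4 20.0, 12.97 and 17.2 CPM. The part of these cells in the Dll1 and Dll4 levels was not tested either.

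The gut-derived organoids gave the reference for both forms, and in neither form was a member called between origins. In spherical organoids 8 members were tested. Notch3 was 9.40 to 12.9 CPM in FIPC-SOs and differed by 0.75 (edgeR FDR 0.287), Jag2 was 17.4, 26.0 and 33.3 CPM and below all dediHep-SO libraries (0.66, FDR 0.214), Nrarp was above all of them (-0.80, FDR 0.143), and Dll4 was 3.09, 4.70 and 6.78 CPM (-1.33, FDR 0.221). Notch1 differed by 0.16 (FDR 0.82), Notch2 by -0.24 (FDR 0.7), Jag1 by -0.67 (FDR 0.619) and Hes1 by -0.76 (FDR 0.438), while Dll1 (6 counts against 24) and Hey1 (0 in both) were too low. Only Nrarp had an unadjusted edgeR p under 0.05, DESeq2 called 0, and 4.92% of 11608 genes were called higher and 3.99% lower in dediHep-SOs.

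In budding organoids 8 members were tested, and the nearest to a call was Dll4 (log2 difference 1.32 ± 0.40, edgeR FDR 0.0802), higher in all 3 dediHep-BOs than in any ISC-BO. Notch1 differed by 0.92 (FDR 0.135) and Jag2 by 0.94 (FDR 0.163), and these, with Dll4, were the 3 members with an unadjusted p under 0.05. Notch2 differed by 0.21 (FDR 0.776), Jag1 by 0.85 (FDR 0.29), Dll1 by 0.85 (FDR 0.296), Hes1 by 0.68 (FDR 0.313) and Nrarp by 0.28 (FDR 0.656), and Hey1 had 1 count in each type. Of all 11303 genes 1.34% were called higher and 1.71% lower in dediHep-BOs. Notch3 was too low for the filter, with 4 counts in dediHep-BOs and 36 in ISC-BOs (4.50, 5.92, 3.05 and 3.19 CPM), a ratio of 6.91 (counting interval 2.48 to 26.7) without overlap. DESeq2, which kept it, called 1 member, Notch3.

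Between the gut organoids themselves 0 of 9 members were called, against 4% of 11644 genes higher and 2.62% lower in ISC-BOs. Notch2 was lower in ISC-BOs by -1.30 ± 0.34 (edgeR FDR 0.0271) and Notch3 by -1.52 ± 0.37 (FDR 0.0209), both without overlap and both short of the fold threshold. Notch2 was 5.62, 5.92, 4.79 and 8.20 CPM in ISC-BOs and 13.53, 12.3 and 17.8 CPM in FIPC-SOs. Dll1 (1.09, FDR 0.374) and Dll4 (0.43, FDR 0.654) overlapped. Notch1 differed by 0.12 (FDR 0.883), Jag1 by -1.45 (FDR 0.195), Jag2 by -1.03 (FDR 0.125), Hes1 by -0.20 (FDR 0.835) and Nrarp by 0.18 (FDR 0.79), and Hey1 had 1 count in ISC-BOs and 0 in FIPC-SOs. With Jag1 and Jag2, the members with an unadjusted p under 0.05 were 4, and DESeq2 called 0.

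The difference between budding and spherical organoids was then tested against origin in a single fit of the 4 organoid groups. In the gut pair this is also a difference between adult animals and embryos, and only the dediHep pair involves added Cdx2. The interaction cannot tell age and added Cdx2 apart from form and origin. Of 9 members tested, Dll4 had the larger budding-to-spherical change in the dediHep line, by 2.61 ± 0.78 on the log2 scale (edgeR FDR 0.0476), and Notch3 the more negative change, by -3.42 ± 0.85 (FDR 0.0213). Dll1 had 2.52 (FDR 0.108), Jag1 1.48 (FDR 0.337), Hes1 1.40 (FDR 0.244), Nrarp 1.05 (FDR 0.151), Notch1 0.73 (FDR 0.354), Notch2 0.41 (FDR 0.588) and Jag2 0.25 (FDR 0.769), and Hey1 was too low. Among all 12379 genes 5.37% had a called interaction above 0 and 4.08% below 0, against 1 and 1 of the 9. The call of Dll4 was lost without dediHep-SO library 1 (2.33, FDR 0.137) or 2 (2.19, FDR 0.116), without dediHep-BO library 1 (2.46, FDR 0.101) and without FIPC-SO library 3 (2.27, FDR 0.134), and without dediHep-SO library 3 Jag1, Dll1 and Hes1 were called as well. Notch3 stayed called when any library was left out.

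**Figure D5:**
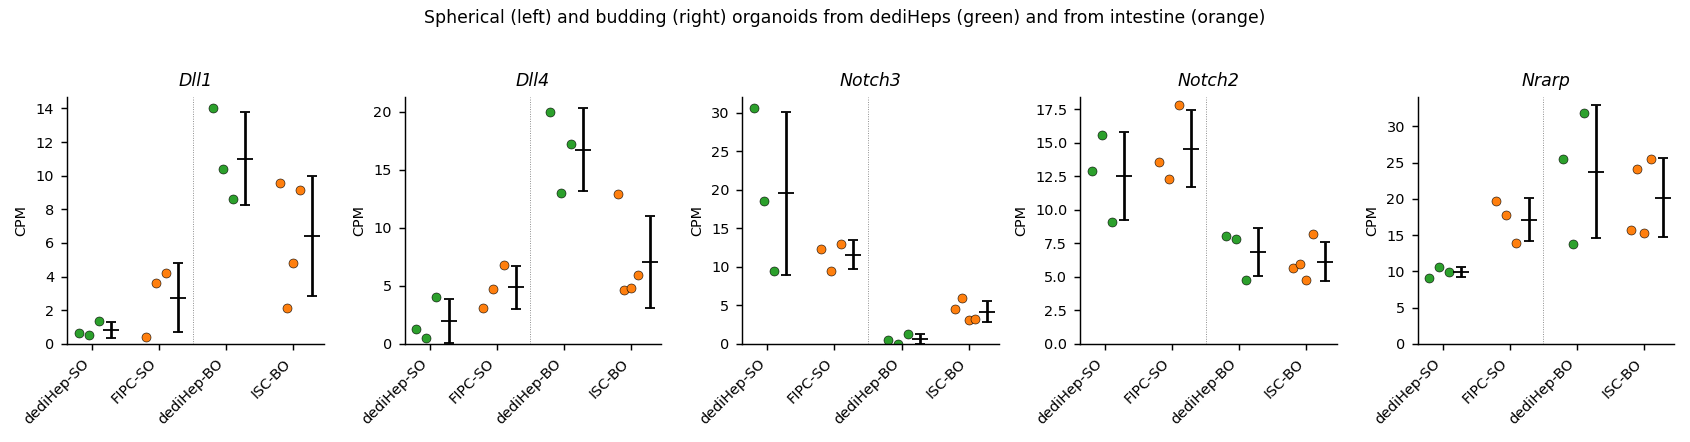
CPM (vertical axis, linear from 0) of Dll1, Dll4, Notch3, Notch2 and Nrarp in the 4 organoid types, spherical to the left and budding to the right of the dotted line. Points are libraries, green from dediHeps and orange from intestine, and bars are mean and SD. Dll1 and Dll4 are highest and Notch3 lowest in the dediHep-BOs, and Notch2 is lower in both budding types than in the spherical types.

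CLiPs are another way to expand hepatocytes and were compared with dediHeps, which share the monolayer form but not the medium. Jag2 and Hey1 were lower in CLiPs. Jag2 was 3.59, 4.70 and 2.93 CPM, below every dediHep culture (log2 fold change -2.91 ± 0.46, edgeR FDR 0.0144). Hey1 was 0, 0 and 0.976 CPM, with 2 counts against 103, a ratio of 37.7 (counting interval 10.2 to 316, FDR 0.0429). Its call was lost without CLiP library 1, where the log2 fold change was -4.52 (FDR 0.192) in place of -4.93.

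Hes1 was 27.2, 105 and 112 CPM in CLiPs, below every dediHep culture (log2 difference -2.25, edgeR FDR 0.118), and Nrarp was 2.05, 3.58 and 15.6 CPM (-3.21, FDR 0.117). DESeq2 called both of these in addition, 4 members in all. CLiP library 3 had both Hey1 counts and the highest Nrarp, and hepatocyte markers summed to 9504 CPM in it against 1998 and 2189 CPM in libraries 1 and 2. Without that library Jag2 and Hey1 were still called and Nrarp was called as well. Jag1 was 22.03, 48.7 and 17.1 CPM (-0.59, FDR 0.735), and Notch3 (5 counts against 9), Dll1 (5 against 4) and Dll4 (0 in both) were too low. Notch1 differed by -1.31 (FDR 0.298) and Notch2 by 0.79 (FDR 0.307). Of 7 members tested 0 were called higher and 2 lower, against 1.65% and 1.39% of 11567 genes, and the median was -2.25 over the 7 and -0.03 over all genes. Both called members, Jag2 and Hey1, passed the low-count filter only through dediHeps.

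Verteporfin asked whether the Yap inhibitor alters the first week of culture. Of the 10 genes 4 had enough counts, and 0 were called, where 0.24% of 10400 genes were called higher and 0.0288% lower. Notch1 was 14.1 and 20.5 CPM with verteporfin and 30.9 and 43.4 CPM with DMSO, without overlap (log2 difference -1.10 ± 0.35, edgeR FDR 0.373). Jag1 was 31.4 and 50.4 CPM against 37.2 and 85.7 CPM (-0.59, FDR 0.7), Hes1 39.2 and 81.5 CPM against 54.9 and 154 CPM (-0.79, FDR 0.656), and Notch2 36.6 and 24.9 CPM against 30.3 and 44.5 CPM (-0.28, FDR 0.851). Library 2 was the higher in both arms for Jag1 and Hes1. Only Notch1 had an unadjusted edgeR p under 0.05, and DESeq2 called 0. The other members were too low, at 10 counts with verteporfin against 5 for Notch3, 9 against 7 for Jag2, 6 against 11 for Nrarp, 0 against 2 for Dll1, 1 against 0 for Dll4 and 0 against 1 for Hey1.

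A further 48 genes of the pathway were examined by role, of which 30 to 36 had enough counts in a comparison. In the time course 36 were tested, and the numbers called higher and lower were 1 and 0 at 3 h, 6 and 3 at 1 day, 4 and 3 at 2 days, 4 and 4 at 4 days, 6 and 3 at 1 week and 8 and 2 at 2 weeks. Of all genes 3.06%, 6.57%, 9.21%, 11.4%, 13.2% and 14.1% were called higher at these times. Called lower were 3.85%, 10.9%, 12.1%, 12.4%, 12.8% and 15.3%. The gene called at 3 h was Sox9, a biliary and crypt gene that Notch can induce, which rose from 14.3, 51.1 and 101 CPM in FH to between 603 and 632 CPM (log2 fold change 3.48, edgeR FDR 9.19e-05). At 1 day the most significant were Sox9 and Neurl1a, a ubiquitin ligase that acts on ligands, among those that rose, and Psen2 and Hes6 among those that fell. Psen2, a catalytic subunit of γ-secretase, fell from 1127 to 1746 CPM in FH to 65.3 to 98.4 CPM at 2 weeks, and was the only gene of the 10-gene cleavage list that was called in any comparison.

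In dediHeps against FH 5 of 34 were called higher and 1 lower. Dlk2, an atypical ligand that can inhibit Notch, rose from 0 to 436 counts (33.8-fold over the floor, edgeR FDR 0.00031). Numbl, a relative of the Notch inhibitor Numb, rose by 4.71 (FDR 0.000212). The coactivator Maml2 rose by 4.69 (FDR 0.000778) and Dtx3, of the Deltex family, by 5.57 (FDR 0.00658). Psen2 fell by 3.89 on the log2 scale (FDR 8.77e-06). In aggregates 4 of 35 fell, Dlk2 (-2.60), Maml2 (-2.16), Dtx3 (-3.19) and Neurl1b (-2.61), with edgeR FDRs of 0.0185, 0.0232, 0.0358 and 0.0642, and 0 rose.

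In dediHep-SOs against dediHeps 4 of 36 were higher, the receptor glycosyltransferase Lfng (2.65, edgeR FDR 0.00343), Neurl1a (3.68), Neurl1b (2.43) and Dtx4 (2.15), and 3 were lower, Dlk2 (-7.54), Numbl (-2.64) and Dtx3 (-2.63). In dediHep-BOs against dediHep-SOs 0 of 32 were higher and 3 lower, among them Neurl1a (-5.71, FDR 0.000267) and Maml2 (-3.57). Neurl1a was 20.4 to 91.7 CPM in dediHep-SOs and at most 2.91 CPM in any library of the other organoids. Against FIPC-SOs, dediHep-SOs had 2 of 35 higher, Neurl1a (5.31) and Maml2 (2.41), and 0 lower. The interaction was called for 0 above 0 and for 2 below 0, among them Neurl1a (-4.94, FDR 0.0304). In CLiPs Dlk2 was lower (-3.31, FDR 0.018) and 0 of 36 were higher, and in ISC-BOs against FIPC-SOs Dtx3 was lower (-3.23, FDR 0.00713) and 0 of 32 higher. Between the budding organoids 0 of 30 were called by edgeR, and with verteporfin 0 of 31. These shares of the pathway genes can be read against the percentages of all genes given above for each comparison.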

How the data were processed

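Total RNA was sequenced by CEL-Seq2. The authors turned reads into whole-number UMI counts per Ensembl gene, deposited as a matrix without normalization. The paper names the celseq2 pipeline, and the submitters' processing notes list bcl2fastq 2.20, Bowtie2 2.3.1, HTSeq 0.6.0 and GRCm38. The annotation used for counting is not given in the sources used here. The highest count in any library, 4096, equals the number of possible sequences of 6 bases, so counts of very abundant genes may be capped, and no member reached it. Columns were matched to samples through labels, and 0 columns were left over. Symbols and coordinates came from GENCODE M21, which named 45143 identifiers.

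Counts were tested with edgeR 4.0.16 (limma 3.58.1, R 4.3.3, package data.table version 1.17.8) by the quasi-likelihood F-test with TMM and filterByExpr (minimum count 10, minimum total 15). FH and the culture times shared a single fit, other comparisons used only their own libraries, and the interaction used the 4 organoid groups. Comparisons that share FH or dediHep libraries are not independent of each other. The fold and FDR thresholds follow the study's methods, and the steps were tested on simulated counts with known changes. TMM factors ran from 0.633 to 1.25. Count ratios pool the counts of a group over its library sizes, scaled with TMM factors over all libraries. Folds against a group with 0 counts use 3 counts over that group as a floor. They leave out the counting error of the other group and are not lower limits. Ratios against 1 to 3 counts carry 95% exact intervals for counting error only.

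Over 54 replicate pairs 0 were identical, Spearman correlations ran from 0.826 to 0.928, and the lowest chi-square per degree of freedom was 5.62, so every library was counted once. Pairing was checked by the correlation of deviations from group means. The library names give aggregates, dediHep-SOs and dediHeps shared codes, read here as cultures. Their r was 0.183 to 0.359 for the 3 aggregate pairs and -0.511 to 0.048 for the 3 dediHep-SO pairs. Verteporfin and DMSO libraries share a number, with r of 0.445. This is a single value, because with 2 libraries in each group the deviations of the second pair mirror those of the first. Alternatives were RLE normalization, DESeq2 1.42.0, no low-count filter, all 49 libraries in 1 fit, a replicate block, a correction for UMI collisions, CPM without TMM factors and leaving out each library. A fit without libraries rich in macrophage markers, which leaves 1 library at each time from 1 day on, and a block by the library number of the sample descriptions were added after the values were seen.

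All 10 members are named in every comparison. Of 48 other pathway genes at most 4 per direction with the smallest p among those called are named, and for likeness at most 3 genes per member. The members and lists were chosen with earlier results of these data known. Imaging, qPCR and transplantation were not analysed here. The values of 1 gene of the pathway list and of 1 marker gene are not reported here.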

Additional observations from a re-analysis of the deposited data

Results flagged for a closer look

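Single libraries stood apart from the rest of their group in 5 of the 19 groups of 4 to 10 libraries that could be tested for this by Dixon's ratio, which chance alone would give in about 1 of 20. In 2 of the 5 every other library had no count, where any count at all passes this test. In dediHeps these were Notch2 in culture A (58.0 CPM, where the other 4 cultures had 27.5 to 32.6 CPM), Jag1 in culture A (125 CPM against 15.9 to 32.2 CPM) and Dll1 in culture C (1.23 CPM, 1 of 5 cultures with any count). In ISC-BOs they were Dll4 in library 1 (12.9 CPM against 4.65 to 5.93 CPM) and Hey1 in library 2 (0.423 CPM, a single count). Without dediHep culture A, Jag1 was called higher than in FH as well (log2 fold change 5.33).

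The difference between budding and spherical organoids was unequal in the dediHep and gut pairs for Notch3 (interaction -3.42 on the log2 scale, edgeR FDR 0.0213) and Dll4 (2.61, edgeR FDR 0.0476). Form goes with age in the gut pair and with added Cdx2 in the dediHep pair, and these cannot be told apart. For Notch3 the fold from spherical to budding was -4.92 in the dediHep line and -1.52 between FIPC-SOs and ISC-BOs, and all libraries of the budding type were below those of the spherical type in both. Stellate and mesenchymal markers summed to 11.98, 5.42 and 488 CPM in FIPC-SO libraries 1 to 3, where Notch3 was 12.4, 9.40 and 12.9 CPM. The part of such cells in the Notch3 level was not tested.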

How the results depend on the processing

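Of the 40 fold changes with an FDR under 0.1, 0 reversed under the alternatives that gave a value, and the other members' fold changes were not followed. Their refits stayed under that FDR in 242 cases and passed it in 19, and with each library left out 415 and 42. Of 160 condition means 151 moved by less than 1 SD without TMM factors. Without the low-count filter the members called numbered 1 at 3 h (Jag1), 1 at 1 day (Dll1), 2 at 2 days (Jag1, Dll4), 5 at 2 weeks (Notch3, Jag1, Jag2, Dll4, Nrarp), 1 for dediHep-BOs against ISC-BOs (Notch3) and 4 for CLiPs (Jag2, Hes1, Hey1, Nrarp). With all 49 libraries in 1 fit, which tests more of the low members, they were 1 at 1 day, 3 at 2 days, 4 at 4 days, 6 at 2 weeks, 1 for dediHep-BOs against ISC-BOs, 4 for CLiPs and 1 for the interaction, where Dll4 was lost (2.55, edgeR FDR 0.151). DESeq2 called 1 at 1 day, 4 at 2 weeks, 1 for dediHep-BOs against ISC-BOs and 4 for CLiPs. All 3 of these alternatives called 3 at 1 week, 7 for dediHeps against FH and 7 for dediHep-SOs against dediHeps, adding Dll4 each time (lower in the first 2, higher in the third) and Jag1, lower, in dediHep-SOs. The added time-course calls of Dll1 and Dll4 were lower than FH. With culture libraries low in macrophage markers 1 member was called at 4 days. The causes were not tested beyond the number of members tested. The shares of all genes called in these refits, and in those with a library left out, are not given here. The counts of members in them cannot be set against such a share.

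With each library left out in turn, members called ran from 0 to 1 at 3 h and at 1 day, 1 to 1 at 2 days, 2 to 2 at 4 days, 2 to 3 at 1 and at 2 weeks, 5 to 6 for dediHeps against FH, 3 to 4 for aggregates, 2 to 6 for dediHep-SOs against dediHeps, 3 to 4 for dediHep-BOs against dediHep-SOs, 0 to 1 for dediHep-SOs against FIPC-SOs, 1 to 3 for CLiPs and 1 to 5 for the interaction. They were 0 throughout for the comparisons of dediHep-BOs with ISC-BOs, ISC-BOs with FIPC-SOs and verteporfin with DMSO. A call was gained at 3 h without FH library 3 (Hes1, 2.18) or 3 h library 2 (Notch1, -2.11), at 1 day without its library 2 (Jag1, 3.00), and between spherical organoids without dediHep-SO library 3 (Dll4, -2.33) or FIPC-SO library 1 (Dll1, -2.20). One was also gained at 1 week without FH library 1 (Notch3, 4.82), in CLiPs without dediHep library 4 (Hes1, -2.46), and without dediHep-SO library 3 for Jag1 against dediHeps (-3.60) and Hes1 in dediHep-BOs against dediHep-SOs (2.42). In CLiPs Nrarp was gained without dediHep library 1 (-3.39), dediHep library 5 (-3.47) or CLiP library 3 (-4.46). Calls were lost without dediHep-SO libraries 1 and 2 (2 members called against dediHeps each) and CLiP library 1, and 5 libraries moved the interaction count.

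A replicate block, or a block for the shared culture, moved no count of members. It took the FDR above 0.1 for Jag2 in aggregates (0.197), Notch2 in dediHep-SOs (0.154), Jag2 in dediHep-BOs against dediHep-SOs (0.134), Notch2 and Notch3 between gut organoids (0.113 and 0.173) and Hey1 in CLiPs (0.147), and brought Nrarp in CLiPs to a call (-3.73, edgeR FDR 0.0465). Outside aggregates, dediHep-SOs and verteporfin the labels give the libraries only a number. The sample descriptions number all time-course libraries differently from the titles, and the 3 h libraries share only the number 4 with FH and the other times. By the number of the descriptions 5 of 16 pairs with FH and 15 of 30 pairs among the times from 1 day to 2 weeks had r over 0.1. A replicate block by it moved no count and took Hes1 at 3 h to 1.56 (FDR 0.439). Macrophage markers in culture also followed the number. A count of 0 in a library limits a gene to 0.671 to 3.91 CPM, so a lower level of Hey1, Dll1 or Dll4 was not detectable at this depth.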

Other observations

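Among pathway genes that were too low for most or all tests, Olfm4, a crypt gene that Notch activates in the gut, had no count in FH, dediHeps or aggregates and 30 counts in dediHep-SOs (1.00 to 6.62 CPM), against 4 counts in dediHep-BOs, 8 in ISC-BOs and 1 in FIPC-SOs. Hes5, a target known from neural and gut progenitors, had 21 counts in ISC-BOs (0.870 to 3.65 CPM) and at most 1.81 CPM in any dediHep-SO library. Hes7, the clock gene of the somites, had 54 counts in FIPC-SOs (2.26 to 10.8 CPM) and 19 in dediHeps. Notch4, a receptor of endothelial cells, had 12 counts in FH (0 to 9.97 CPM) and 38 in dediHep-SOs (3.17 to 6.93 CPM), where endothelial markers summed to 10.5 to 15.8 CPM with 3 of 10 at 0. Notch4 passed the filter in the time course, between the spherical organoids (0.94, edgeR FDR 0.354) and for the interaction, and was called in none of these. The other 3 genes were tested in no comparison.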
